A study of Mus musculus with 2 samples.

Results

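Serpinh1, Dcn, Col3a1, Col6a1, Sparc, Cald1, Tm4sf1, Rhox5, H19 and Gng11 are 10 genes whose transcripts were found together in a few barcodes of tumour-infiltrating immune cells, although most of them are known from connective tissue and cultured tumour cells and not from leukocytes. They were chosen by symbol, with their joint presence in these libraries already known, and each of the 10 symbols was found among the 27998 genes of both count matrices. The libraries were single-cell 3′ RNA-seq of CD45+ cells sorted from subcutaneous MC38-GFP tumours, a mouse colon adenocarcinoma line, in C57BL/6 mice. Both hosts had received 50000 tumour cells and 100 ug of anti-PD-1 antibody, a dose described as sub-optimal, on days 12, 15, 18 and 22. One library came from a responder tumour and 1 from a non-responder tumour; the labels state neither the age of the mice nor how many tumours were pooled. With 1 library per group there was no replicate check. Differences between the groups are therefore given as sizes with no test, and each interval is an exact 95% interval that covers counting error only.

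The collagens are secreted fibres and filaments of the extracellular matrix, and they are folded in the endoplasmic reticulum with the help of a dedicated chaperone before they leave the cell. Fibroblasts, pericytes and mesenchymal-type tumour cells make large amounts of these RNAs. Leukocytes are defined by CD45, the tyrosine phosphatase encoded by Ptprc, and it was this protein that the sort selected for. In droplet sequencing, a barcode stands for the RNA caught in 1 droplet, and each RNA molecule is counted once by its unique molecular identifier (UMI).

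Serpinh1 (ENSMUSG00000070436, chromosome 7, 99345376-99353239) encodes HSP47, the collagen chaperone of the endoplasmic reticulum. Col3a1 (ENSMUSG00000026043, chromosome 1, 45311538-45349706) encodes the chain of fibrillar type III collagen, and Col6a1 (ENSMUSG00000001119, chromosome 10, 76708792-76726168) encodes a chain of the filament-forming type VI collagen. Dcn (ENSMUSG00000019929, chromosome 10, 97479609-97518143) encodes decorin, a small proteoglycan that binds collagen fibrils. Sparc (ENSMUSG00000018593, chromosome 11, 55394500-55423183) encodes osteonectin, a secreted collagen-binding glycoprotein. Cald1 (ENSMUSG00000029761, chromosome 6, 34598500-34775473) encodes caldesmon, an actin-binding protein of the contractile cytoskeleton. Tm4sf1 (ENSMUSG00000027800, chromosome 3, 57285611-57301988) encodes a membrane protein with several spans, and Gng11 (ENSMUSG00000032766, chromosome 6, 4003904-4008445) encodes a gamma subunit of heterotrimeric G proteins. Rhox5 (ENSMUSG00000095180, chromosome X, 37804842-37808876) encodes a homeobox factor of the reproductive tract that many tumour lines also express. H19 (ENSMUSG00000000031, chromosome 7, 142575529-142578143) is a maternally expressed imprinted long noncoding RNA of fetal tissue. Coordinates are those of GENCODE on GRCm38.

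Promoter windows of 300 bases, 250 before and 50 after a transcription start, were held by RefSeq on GRCm38.p6 for 7 of the 10 genes, 8 windows in all. Dcn, H19 and Gng11 had no entry. The 4 windows below are shown because Col3a1 and Rhox5 stand for the matrix and the germline-type members, and because Cald1 has a pair of annotated starts with different letters. Capitals mark matches on either strand to 5 motifs. The TATA box was searched as TATAAA. The CCAAT box was searched by its own letters. The GC box was searched as GGGCGG. The AP-1 site was searched as TGANTCA. The TEAD site was searched as GGAATG. Col3a1 is chr1:45311288-45311587, Cald1 is chr6:34598254-34598553 and chr6:34709194-34709493, and Rhox5 is chrX:37754358-37754657, each on the plus strand.
Col3a1: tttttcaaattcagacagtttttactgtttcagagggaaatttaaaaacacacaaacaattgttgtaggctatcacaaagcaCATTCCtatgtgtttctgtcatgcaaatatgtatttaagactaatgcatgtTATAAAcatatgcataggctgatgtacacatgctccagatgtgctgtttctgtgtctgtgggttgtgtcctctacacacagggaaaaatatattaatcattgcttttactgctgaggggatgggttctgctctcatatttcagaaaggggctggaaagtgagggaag
Cald1 upstream start: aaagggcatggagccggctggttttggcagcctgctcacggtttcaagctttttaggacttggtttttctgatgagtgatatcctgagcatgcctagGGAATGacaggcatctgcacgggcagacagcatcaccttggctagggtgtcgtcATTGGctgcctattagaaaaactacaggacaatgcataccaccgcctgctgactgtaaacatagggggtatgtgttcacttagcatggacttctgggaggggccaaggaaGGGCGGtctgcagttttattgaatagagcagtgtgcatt
Cald1 downstream start: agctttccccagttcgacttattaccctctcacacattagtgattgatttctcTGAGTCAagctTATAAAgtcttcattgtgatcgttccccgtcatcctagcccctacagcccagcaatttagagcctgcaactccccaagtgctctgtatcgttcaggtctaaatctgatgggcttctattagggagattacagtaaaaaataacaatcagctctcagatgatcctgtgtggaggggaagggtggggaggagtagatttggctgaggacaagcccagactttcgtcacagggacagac
Rhox5: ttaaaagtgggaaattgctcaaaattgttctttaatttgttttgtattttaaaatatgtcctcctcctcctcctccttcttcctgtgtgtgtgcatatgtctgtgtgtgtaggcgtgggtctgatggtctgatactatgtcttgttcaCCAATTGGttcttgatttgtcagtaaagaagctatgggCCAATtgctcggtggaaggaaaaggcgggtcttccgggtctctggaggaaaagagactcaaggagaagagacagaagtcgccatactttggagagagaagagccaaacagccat
The Rhox5 window lies upstream of the GENCODE gene given above. The TATA box match of the Col3a1 window lay at -117 and the TEAD site match at -168 from the annotated start. The Rhox5 window held 3 CCAAT box matches, those at -102 and -99 overlapping on opposite strands. The upstream Cald1 window held 1 match each of the CCAAT box, the GC box and the TEAD site, and the downstream one held an AP-1 site and a TATA box. Over the 8 windows, the CCAAT box was matched in 3 and each of the other 4 motifs in 2. Among 32851 windows of the same length in the table, the share with a match was 13.6% for the TATA box, 37.4% for the CCAAT box, 35.7% for the GC box, 7.81% for the AP-1 site and 14.7% for the TEAD site. These are matches of letters, and the 3′ counts do not show which start was used.

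The responder library held 4425 barcodes and 45866561 UMIs, and the non-responder library 2580 barcodes and 32032569 UMIs. Barcodes with at least 500 genes and at most 10% mitochondrial UMIs were kept as cells, 4376 in the responder library (median 10043 UMIs) and 2565 in the non-responder library (median 11752 UMIs). The libraries shared 14 barcodes, none of them rich in the members, with 4 member UMIs in each library. By fixed markers 94.8% of responder cells and 91.9% of non-responder cells were macrophage-like. Doublets were not called and none were removed.

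Member RNA lay in very few barcodes. A barcode with 10 or more UMIs of the 10 genes is called member-rich here, and there were 22 of 4376 cells in the responder library (0.503%, 0.315 to 0.760) and 19 of 2565 in the non-responder library (0.741%, 0.447 to 1.15). The intervals of these shares overlap. The lowest member-rich barcodes held 11, 12 and 13 member UMIs in the responder library and 14, 16 and 17 in the non-responder library, and the highest of the others held 8, 8 and 7 in both. The count of 10 UMIs therefore fell in a gap. Member-rich barcodes carried 78.2% of the 5915 member UMIs of the responder library (77.1 to 79.3) and 85.0% of the 6673 of the non-responder library (84.1 to 85.8).

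**Figure D1:**
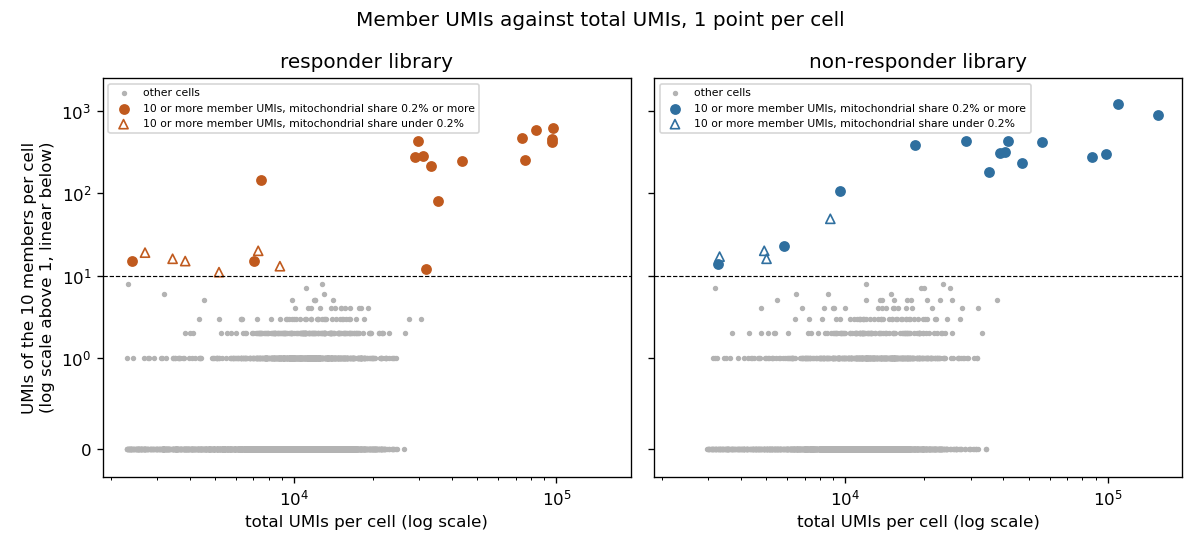
UMIs of the 10 members (vertical) against total UMIs (horizontal) for each cell, responder left and non-responder right, with member-rich barcodes coloured and the dashed line at 10 UMIs. The 22 responder and 19 non-responder barcodes above the line reach 626 and 1227 member UMIs, and the largest barcodes of both libraries are among them.

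The largest droplets of both libraries were member-rich. Member-rich barcodes held 2408 to 96839 UMIs in the responder library (median 30286) and 3282 to 155319 in the non-responder library (median 35385). No other cell exceeded 30474 UMIs in the responder library or 37780 in the non-responder library, and 11 responder and 9 non-responder member-rich barcodes lay above those limits. Barcodes are named R1 to R22 in the responder library and N1 to N19 in the non-responder library, by falling member UMIs. At 50 or more member UMIs there were 13 barcodes in each library, R1 to R13 with 81 to 626 (median 281) and N1 to N13 with 108 to 1227 (median 322). The ranges overlap, and N1 and N2, with 1227 and 903, lay above every responder barcode.

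Clustering of both libraries together placed 39 of the 41 member-rich barcodes in 1 cluster, which held 22 responder and 20 non-responder cells at each of the 3 resolutions tried. Its leading genes were Serpinh1, Dcn, Col3a1, Ppic, Gng11, Rhox5, Sparc, Cald1, Tm4sf1 and Phgdh. The clustering used the members themselves, so this is a description. The fibroblast list of 10 counted 3 detected markers in the cluster, and the macrophage list of 14 counted 5. A fibroblast name needed 3 list genes among the 10 leading genes, which held only Dcn and Col3a1, both members. A macrophage name needed 75% of its list, and the cluster was left unnamed. The remaining pair were R17 and R21, in macrophage-like clusters with 403 and 1033 UMIs of 14 macrophage markers. R9, which lay in the unnamed cluster, held 433.

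Co-detection was close to complete in the barcodes with most member RNA. Cells with 9 or 10 different members numbered 12 in the responder library and 13 in the non-responder library. Each was member-rich, which the rule of 10 UMIs fixes for 10 different members and nearly fixes for 9. No cell of either library had 7 members, and 819 responder and 560 non-responder cells had exactly 1. Across all cells, 45 pairs of members had a median Pearson r of 0.464 in the responder library and 0.521 in the non-responder library on log counts per 10000. Among cells outside the member-rich ones the medians were 0.018 in both libraries. Leaving out cells by their member UMIs lowers r by itself. Summed over the 45 pairs, co-detections in those outside cells numbered 185 in the responder library, against 92.4 if detections were independent. In the non-responder library they numbered 180, against 96.0. Cells share library and depth, so these are descriptions.

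Col3a1 and Col6a1, the 2 collagen chains, were the closest pair. Their r was 0.677 in the responder library and 0.778 in the non-responder library over all cells, and 0.828 and 0.812 within the 22 and 19 member-rich barcodes. Tm4sf1 and H19 were the least alike over all cells, with r of 0.172 and 0.213. Within member-rich barcodes the same pair had r of -0.244 in the responder library and -0.305 in the non-responder library. Serpinh1 and Sparc were both detected in 19 responder cells, against 1.06 if their detections were independent, and in 18 non-responder cells, against 1.54. Outside the member-rich barcodes the pair was seen in 3 responder and 4 non-responder cells, against 0.60 and 0.88 if independent.

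**Figure D2:**
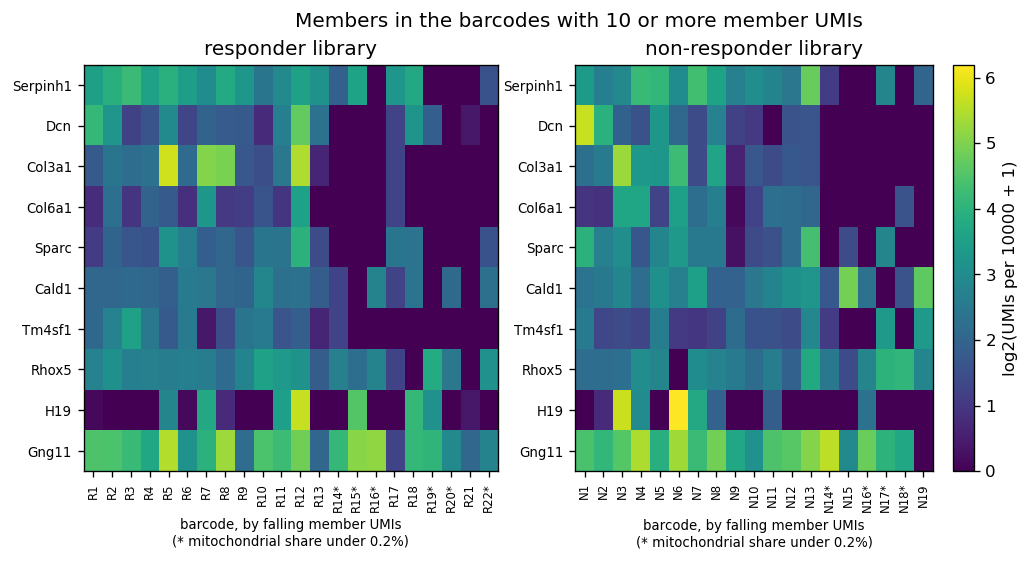
Level of each member (rows, log2 of UMIs per 10000 plus 1) in each member-rich barcode (columns, by falling member UMIs), responder left and non-responder right, asterisks marking barcodes with under 0.2% mitochondrial UMIs. Gng11 is seen in 22 responder and 18 non-responder barcodes, while H19 is seen in 11 and 8, and the matrix members are mostly at 0 in the asterisked columns.

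Serpinh1, the collagen chaperone, was detected in each of the 13 barcodes with 50 or more member UMIs in both libraries, with 4.34 to 17.8 UMIs per 10000 in the responder library (median 10.5) and 4.52 to 26.1 in the non-responder library (median 7.25). Over all 22 and 19 member-rich barcodes its level was 1004 UMIs per 1000000 (CPM) in the responder library (936 to 1076) and 868 CPM in the non-responder library (805 to 936). The barcode values of the libraries overlap.

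Col3a1 ranged more widely. In the same 13 barcodes each it had 0.563 to 53.0 UMIs per 10000 in the responder library (median 4.04) and 0.510 to 37.8 in the non-responder library (median 3.85). R5, R7 and R8 stood highest by UMIs in the responder library, with 157, 100 and 86, and N3 in the non-responder library with 109. Its summed level was 716 CPM in responder and 551 CPM in non-responder member-rich barcodes. Col6a1 was lower, at 185 and 272 CPM, and was detected in 13 of 22 responder and 14 of 19 non-responder barcodes. These levels are per UMI total of 3′ tags, which does not depend on transcript length.

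Dcn was the most unequal of the matrix genes. N1 held 549 of the 906 Dcn UMIs of the non-responder member-rich barcodes and N2 another 226, whereas R1 held 159 of the 386 in the responder library. The median of the 13 barcodes was 2.91 UMIs per 10000 in the responder library and 2.09 in the non-responder library, while the summed levels were 479 and 1137 CPM. N1 was also the barcode with most Sparc, 162 of 428 UMIs, against at most 52 of 235 in the responder library, in R6. Sparc was at 292 CPM in responder and 537 CPM in non-responder member-rich barcodes.

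Cald1, Rhox5 and Gng11 were found in nearly every member-rich barcode. Gng11 was the highest member, at 1565 CPM in the responder library (1480 to 1654) and 1904 CPM in the non-responder library (1809 to 2002), and it was detected in 22 of 22 and 18 of 19 barcodes. Rhox5 was at 575 and 467 CPM and was detected in 20 of 22 and 18 of 19. Cald1 was at 339 and 523 CPM and was detected in 19 of 22 and 18 of 19. N6, with 385 member UMIs, held no Rhox5 UMI, the one such barcode among the 26 with 50 or more. Tm4sf1 was at 407 CPM in the responder library, where R3 held 80 of its 328 UMIs, and at 260 CPM in the non-responder library.

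H19 was split between barcodes. Of the 13 barcodes with 50 or more member UMIs, 7 held at least 1 H19 UMI in each library, at up to 49.5 UMIs per 10000 in R12 and 117 in N6. N6 held 214 and N3 147 of the 476 H19 UMIs in non-responder member-rich barcodes. No responder barcode held more than 38. R2, R3, R4 and R9, each with over 250 member UMIs, held none.

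By summed level, several members were lower in the largest barcodes of both libraries. No barcode with 50 or more member UMIs had a total between 56042 and 74230. These barcodes were therefore divided at 60000 total UMIs, a division chosen after the values were seen. A smaller barcode needs a higher member level to reach 50 member UMIs. The choice of barcodes thus favoured higher levels among the smaller ones, and its part in the differences was not tested. H19 was at 3.82 CPM in the 6 larger responder barcodes and 616 CPM in the 7 smaller ones, and at 24.5 CPM in the 4 larger non-responder barcodes and 1464 CPM in the 9 smaller ones. Col3a1 was at 336 CPM in the larger and 1909 CPM in the smaller responder barcodes, and at 316 and 939 CPM in the non-responder ones. A few barcodes carried much of these sums. R5, R7 and R8 held 157, 100 and 86 of the 400 Col3a1 UMIs of the smaller responder barcodes. N6 and N3 held 214 and 147 of the 463 H19 UMIs of the smaller non-responder ones. Single barcodes overlap in Col3a1, with 8 UMIs among 47186 in the smaller N11 and 76 among 155319 in the larger N2. Col6a1 was at 174 against 272 CPM in the responder library, where the intervals overlap, and at 80.1 against 569 CPM in the non-responder library. Gng11 was at 1390 against 2244 CPM and at 1473 against 2485 CPM. Tm4sf1 lay the other way in both libraries, at 538 against 215 CPM in the responder library and 285 against 228 CPM in the non-responder library, where the intervals overlap. Dcn was at 556 against 430 CPM in the responder library, where the intervals overlap. It was at 1773 against 345 CPM in the non-responder library, where N1 and N2 held 549 and 226 of its UMIs. Serpinh1 went opposite ways, at 1176 against 850 CPM in the responder library and 676 against 1214 CPM in the non-responder library. Mki67, a marker of dividing cells, was at 34.4 against 85.9 CPM in the responder library and 71.2 against 25.3 CPM in the non-responder library. Its intervals overlap in both libraries.

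Ptprc was scarce where the members were abundant. Member-rich barcodes held 10 Ptprc UMIs in the responder library, 12.4 CPM (5.95 to 22.8), and 3 in the non-responder library, 3.76 CPM (0.776 to 11.0025). The other cells stood at 183 and 134 CPM. Of the member-rich barcodes, 5 of 22 in the responder library and 3 of 19 in the non-responder library held a Ptprc UMI, against 78.0% and 74.7% of the other cells. R9, with 433 macrophage-marker UMIs, held 5 of the 10 responder UMIs, and R17 and R21 held 2 and 1. N1, N9 and N11 held 1 each. The sort was on CD45 protein and these are RNA counts.

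Other leukocyte RNAs were low in the same way. Of 12 leukocyte genes, 12 were over 2-fold lower in member-rich barcodes than in the other cells of both libraries summed, with a median log2 ratio of -4.39. Tyrobp, a signalling adaptor of myeloid cells, was at 242 and 72.8 CPM in responder and non-responder member-rich barcodes, against 3410 and 2931 CPM in the other cells. The 14 macrophage markers summed to 3523 CPM in responder and 929 CPM in non-responder member-rich barcodes, against 50809 and 47822 CPM in the other cells. R9, R17 and R21 held 433, 403 and 1033 of the 2839 responder UMIs. The median barcode had 16.3 macrophage-marker UMIs per 10000 in the responder library and 9.33 in the non-responder library. H2-K1 and H2-D1, classical MHC class I genes, were nearer to the leukocyte level, with log2 ratios of -1.07 and -1.39. Over 11224 genes, 21.2% were over 2-fold lower in member-rich barcodes and 21.4% over 2-fold higher, and the median log2 ratio was 0.11.

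Of the 10 fibroblast markers, Fap and Postn had no UMI in either library's member-rich barcodes. Col1a1, the main chain of type I collagen, had 0 UMIs in responder and 13 in non-responder barcodes, of which N6 held 8 and N3 held 4. Col1a2 had 2 and 1, and Lum had 2 and 0. Pdgfra and Pdgfrb, the platelet-derived growth factor receptors of mesenchymal cells, had 15 and 7 UMIs in the responder barcodes and 33 and 28 in the non-responder ones. The smooth muscle genes Acta2, Tagln, Myl9 and Cnn1 had none. Of 12 epithelial genes, 11 had no UMI in either library, and Cdh1 had 1 UMI in the responder library. The 6 endothelial markers summed to 2 UMIs in responder and 9 in non-responder member-rich barcodes. The 5 pericyte markers summed to 9 and 4, and each of those UMIs was Cspg4. Dcn and Col3a1, also on the fibroblast list, are members that chose these barcodes and do not bear on the label. Among the other markers, the growth factor receptors and Col5a1 were detected in both libraries, while type I collagen and the smooth muscle genes were at or near 0.

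Other collagens and their processing enzymes were found in the same barcodes. Of 10 further collagen genes, 5 could be measured and 5 were over 2-fold higher in member-rich barcodes. In both libraries summed, Col6a2, Col6a3 and Col5a1 had 299, 229 and 146 UMIs there, against 23, 15 and 17 in the other cells. They passed the limit of 50 counts only through the member-rich barcodes, so their direction was fixed by that limit. Genes such as Col1a1, with few UMIs in all, were left unmeasured. Col6a2 and Col6a3, the partner chains of Col6a1, were at 133 and 151 CPM in responder and 241 and 134 CPM in non-responder barcodes, and Col5a1 at 58.3 and 124 CPM. Of 12 measured collagen-modifying genes, 7 were over 2-fold higher and 1 lower, with a median log2 ratio of 1.96. The share over all 11224 measured genes was 21.4% higher and 21.2% lower. Fkbp10, a collagen chaperone, was at 115 and 168 CPM, and Pcolce, which enhances procollagen cleavage, at 128 and 127 CPM. Plod2, a lysyl hydroxylase, was at 45.9 CPM in responder and 188 CPM in non-responder barcodes. Of 9 measured matrix genes, 8 were higher and 1 was lower. The exception, Thbs1, was at 3.72 and 1.25 CPM in member-rich barcodes, against 24.4 and 29.0 CPM in the other cells. Fn1, fibronectin, was at 292 and 728 CPM in member-rich barcodes and at 33.7 and 320 CPM in the other cells. Of these measured genes, 9 of the 12 collagen-modifying and 4 of the 9 matrix genes reached 50 counts in the other cells alone. The rest passed that limit only with the counts of the member-rich barcodes, which favoured the higher direction.

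The cytoskeletal genes were mixed. Of 9 measured, 5 were over 2-fold higher in member-rich barcodes, among them Tpm1 (369 CPM in responder and 621 CPM in non-responder barcodes), Tpm2 (195 and 213 CPM) and Cav1 (99.3 and 184 CPM). Of the 12 imprinted or germline-type genes, 8 had no UMI in the member-rich barcodes of either library, including Igf2, the imprinted neighbour of H19, and Rhox6 and Rhox9, relatives of Rhox5. Grb10, another imprinted gene, had 14 and 30 UMIs. Of 14 proliferation genes, 6 were over 2-fold higher and none lower. Beside this count and the cytoskeletal one, the share over all 11224 measured genes was 21.4% higher and 21.2% lower. Top2a, a topoisomerase of dividing cells, was at 258 and 198 CPM in the member-rich barcodes, against 62.2 and 61.8 CPM in the other cells.

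With the members left out, the 20 genes with the highest fold in member-rich barcodes over other cells included Steap1, Cyr61, Thbs2, Aebp1, Col6a3, Npdc1, Col6a2, Pcolce and Kdelr3. Steap1, which encodes a membrane protein, was at 72.0 CPM in responder and 137 CPM in non-responder barcodes. Cyr61, a matricellular protein, was at 225 and 81.6 CPM. Also among them were Gpx8, Fstl1, Hoxc10, Osr1, Col5a1, Osr2, Fkbp10, Ppic, Il34 and Sox9. Hoxc10, Osr1, Osr2 and Sox9 encode transcription factors of limb, kidney and skeletal mesenchyme. Hoxc10 was at 72.0 and 69.0 CPM, Osr1 at 120 and 112 CPM, Osr2 at 127 and 96.6 CPM and Sox9 at 112 and 136 CPM.

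The genes whose cell-by-cell pattern was most like the summed members included Gpx8, Sdc2, Sox9, Cd34, Col6a2, Ppic, Tpm2, Fstl1, Osr1, Wwtr1 and Fam159b. Likeness was Pearson r on log counts over 4376 responder and 2565 non-responder cells, ranked by the lower of the libraries among 10961 genes. Gpx8 had r of 0.45 for responder cells and 0.51 for non-responder cells. Sdc2, a heparan sulfate proteoglycan of the cell surface, had 0.42 and 0.53, and Cd34, a sialomucin of progenitor, endothelial and mesenchymal cells, 0.43 and 0.40. The cells share library and depth, and r is a description.

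**Figure D3:**
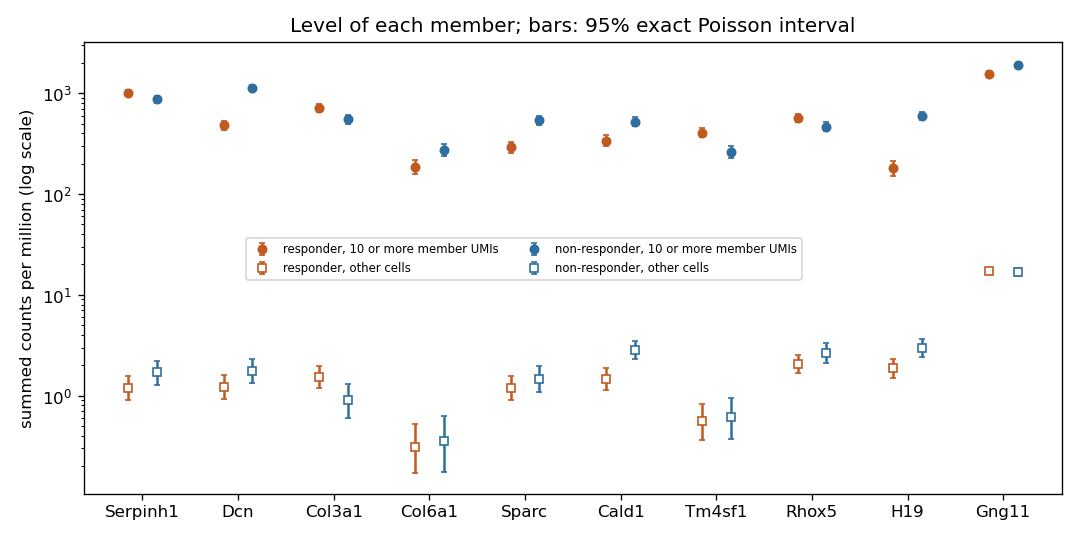
Summed CPM of each member (log scale) in member-rich barcodes (filled) and in the other cells (open), responder left and non-responder right of each gene, with 95% exact Poisson intervals. Gng11 stands apart in the other cells at 17.3 and 16.8 CPM, while the other 9 members lie between 0.312 and 2.98 CPM there.

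Outside the member-rich barcodes, member RNA was seen in many cells at low level. Of the other cells, 21.8% in the responder library (20.6 to 23.1) and 26.2% in the non-responder library (24.5 to 27.99) held a UMI of at least 1 member. After each cell was thinned to 3000 UMIs, which left out 107 shallower cells of the responder library and 2 of the non-responder library, the shares were 8.52% and 8.02%. Gng11 was the most widespread member. Of the cells outside the member-rich ones, 14.3% in the responder library and 14.5% in the non-responder library held a Gng11 UMI, and without it the shares were 9.83% and 14.9%, or 3.44% and 4.36% after thinning.

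Gng11 was a larger part of member RNA in the other cells than in the member-rich ones. It made up 27.3% of member UMIs in responder and 26.8% in non-responder member-rich barcodes, but 60.1% and 52.4% of member UMIs in the other cells. Its level in the other cells was 1.1035% of that in member-rich barcodes in the responder library and 0.885% in the non-responder library. The other 9 members lay between 0.120% and 1.04% (median 0.256%) in the responder library and between 0.130% and 0.571% (median 0.235%) in the non-responder library. H19 was the highest of the 9 in the responder library, at 1.04%, and Rhox5 in the non-responder library, at 0.571%. Serpinh1 was the lowest in the responder library and Col6a1 in the non-responder library.

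Among cell classes, the share of cells with a UMI of a member other than Gng11 was 9.96% of 4147 macrophage-like cells in the responder library and 15.7% of 2357 in the non-responder library. In T or NK cell-like cells it was 4.21% (4 of 95, 1.16 to 10.4) and 1.16% (1 of 86, 0.0294 to 6.31). The median depths were 10074 and 11945 UMIs in macrophage-like cells and 3718 and 5846 UMIs in T or NK cell-like cells. In CPM, these members were at 11.4 and 15.7 for macrophage-like cells and at 9.57 (2.61 to 24.5) and 1.53 (0.0387 to 8.51) for T or NK cell-like cells, so in the responder library the intervals overlap. Thinned to 3000 UMIs, the shares were 3.40% (2.86 to 4.0033) and 4.42% (3.62 to 5.33) for macrophage-like cells. Of T or NK cell-like cells, 4 of 80 in the responder library (1.38% to 12.3%) and 1 of 86 in the non-responder library (0.0294% to 6.31%) held such a UMI, and the intervals of the classes overlap. Dcn was seen in 1.18% and 2.08% of macrophage-like cells and in 1 of 95 and 0 of 86 T or NK cell-like cells. For the last, the floor of 3 counts is 3.49% of the cells, which is not an exact 95% limit.

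Gng11 differed between leukocyte groups. It was at 17.4 CPM in responder and 16.3 CPM in non-responder macrophage-like cells. Among macrophage-like clusters with over 100 non-responder cells, the level ran from 9.15 CPM (4.73 to 15.98) in cluster 12 to 32.2 CPM (27.0 to 38.2) in cluster 14. Among those with over 100 responder cells it ran from 10.2 CPM (7.67 to 13.4) in cluster 7 to 22.2 CPM (19.5 to 25.1) in cluster 3. In T or NK cell-like cells it was at 2.39 CPM in the responder library, from 1 UMI, and 36.7 CPM in the non-responder library, from 24 UMIs, of which 16 were in the 23 cells of 1 subcluster. A cell with 10 or more Gng11 UMIs is member-rich by the rule, so the highest count outside was capped by it. R21, which lay in a macrophage-like cluster, held 10. Outside the member-rich barcodes, 1 responder and 8 non-responder cells had 5 or more Gng11 UMIs, at most 8 in a cell. None of the 9 held a UMI of the platelet genes Ppbp, Itga2b or Gp9. Pf4, a platelet gene that macrophages also express, had 0 UMIs in the responder cell and 0 to 68 in the non-responder cells.

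**Figure D4:**
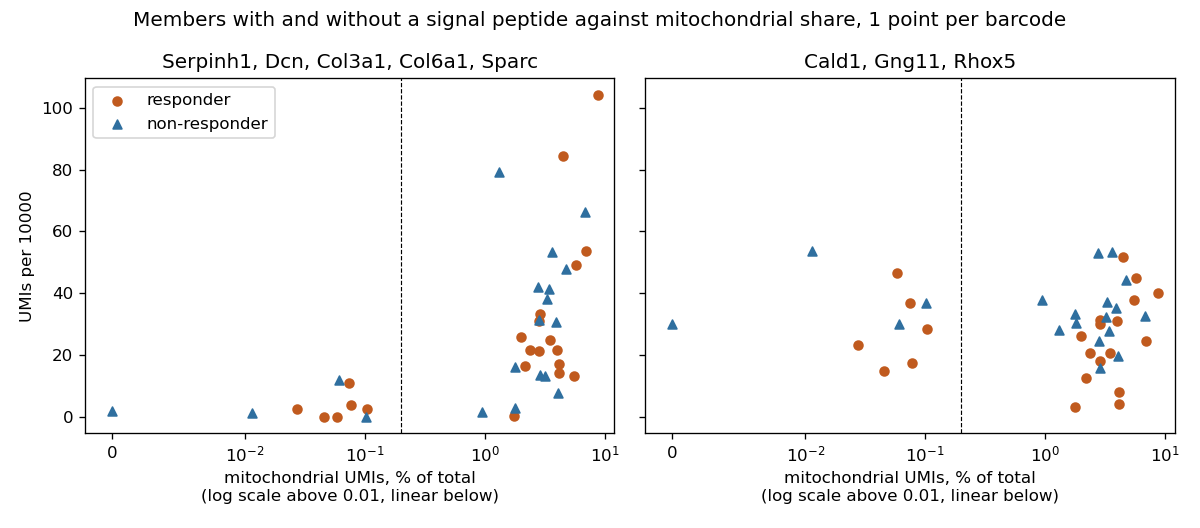
UMIs per 10000 of the 5 members with a signal peptide (left) and of 3 cytosolic or nuclear members (right) against the mitochondrial share of each member-rich barcode, with the dashed line at 0.2%. Left of the line the 5 members together have 8 UMIs in the 6 responder and 6 UMIs in the 4 non-responder barcodes, while the other 3 members are present on both sides.

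A subset of member-rich barcodes had nearly no mitochondrial RNA and few UMIs of the members with a signal peptide. In 6 responder barcodes (R14, R15, R16, R19, R20 and R22) and 4 non-responder barcodes (N14, N16, N17 and N18), mitochondrial UMIs were under 0.2% of the total, a limit set after the values were seen. They held 31316 and 21976 UMIs in all and 11 to 49 member UMIs each. The 5 members that carry a signal peptide, Serpinh1, Dcn, Col3a1, Col6a1 and Sparc, were at 255 CPM in responder and 273 CPM in non-responder low-mitochondrial barcodes, against 2773 and 3453 CPM in the remaining member-rich ones. The log2 ratios were -3.44 (-4.65 to -2.46) and -3.66 (-5.11 to -2.54). The grouping of members by signal peptide was not planned beforehand. Cald1, Gng11 and Rhox5, whose proteins are made in the cytosol, were at 2427 and 4095 CPM, against 2480 and 2860 CPM, with log2 ratios of -0.03 (-0.38 to 0.30) and 0.52 (0.20 to 0.82). These 3 genes gave 76 of the 94 member UMIs of the responder and 90 of the 102 of the non-responder low-mitochondrial barcodes. Such small barcodes reached 10 member UMIs mostly through them, so their level there was set in part by the choice of barcodes and is no reference for the other members.

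Single members differed. Col3a1 had 0 UMIs in the 6 responder and the 4 non-responder barcodes, and Dcn had 1 and 0. Against a floor of 3 counts over the barcodes together, Col3a1 was at least 7.78-fold lower in the responder low-mitochondrial barcodes than in the remaining ones, and at least 4.15-fold lower in the non-responder ones. Gng11 had 48 and 65 UMIs and Rhox5 20 and 20. Cald1 had log2 ratios of -0.42 (-1.65 to 0.58) in the responder and -1.22 (-2.86 to 0.01) in the non-responder library. Tm4sf1, which is not among the 5 members listed with a signal peptide, had 1 UMI against 327 in the responder library. In the non-responder library it had 4 against 203, and the log2 ratios were -3.72 (-9.03 to -1.24) and -0.53 (-2.42 to 0.85). H19 had log2 ratios of 0.71 (-0.45 to 1.68) and -2.75 (-5.80 to -0.89). Chaperones and disulfide isomerases of the endoplasmic reticulum (P4hb, Pdia3, Pdia4, Pdia6, Hspa5, Calr, Canx and Hsp90b1), a list chosen after the values were seen, were at 319 and 546 CPM, against 2280 and 2438 CPM. Malat1, a nuclear noncoding RNA, was at 383 and 91.0 CPM, against 3483 and 3162 CPM. The glycolytic genes of another list with cytosolic products, also chosen after the values were seen, were at 15072 and 31352 CPM, against 9401 and 16023 CPM. Low-mitochondrial cells outside the member-rich ones had the same direction for glycolytic genes, at 15954 and 21710 CPM against 10564 and 13008 CPM, and for Malat1, at 3135 and 6233 CPM against 11329 and 8310 CPM. Their list of endoplasmic reticulum genes had log2 ratios of -0.39 and -0.17, against -2.84 and -2.16 in the member-rich barcodes. The 5 members with a signal peptide went the other way in these outside cells, with log2 ratios of 2.22 (0.59 to 3.46) and 1.34 (-1.72 to 3.21). Those ratios rest on 5 and 2 UMIs in the low-mitochondrial cells. Each of the 10 low-mitochondrial member-rich barcodes lay in the unnamed cluster. N15 and N19 had 0.943% and 1.80% mitochondrial UMIs and likewise held 1 UMI each of the members with a signal peptide.

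As a sum, though not each one, the members were lower in the responder library of CD45-sorted cells. Their summed level over all cells was 129 CPM in the responder library (126 to 133) and 209 CPM in the non-responder library (204 to 214), a log2 ratio of -0.69 (-0.74 to -0.64). In such a sum, fewer cells of a kind and less RNA per cell cannot be told apart, and the largest barcodes weigh most. Dcn was at 9.65 CPM for the responder and 30.1 CPM for the non-responder, H19 at 5.01 and 17.8 CPM, Sparc at 6.33 and 14.8 CPM, and Cald1 at 7.42 and 15.8 CPM. These 4 members were over 2-fold lower in the responder library, and none was over 2-fold higher. Among 11224 genes with 50 or more counts in both libraries together, 4.94% were over 2-fold lower and 3.18% over 2-fold higher, with a median log2 ratio of -0.09. The median of the 10 members was -0.76. Col6a1, at 3.57 and 7.14 CPM, lay at the 2-fold limit and just inside it (95% interval of the log2 ratio -1.30 to -0.70). Serpinh1 (18.9 and 23.3 CPM), Col3a1 (14.1 and 14.6 CPM), Tm4sf1 (7.73 and 7.07 CPM) and Rhox5 (12.2 and 14.2 CPM) were closer between the libraries.

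Single barcodes carried much of this difference. Without the barcode that held most UMIs of the gene in each library, the log2 ratio of Dcn was -1.06 instead of -1.64, that of Sparc -0.91 instead of -1.23, that of H19 -1.41 instead of -1.83 and that of Cald1 -1.08 instead of -1.09. Sparc was then less than 2-fold lower.

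**Figure D5:**
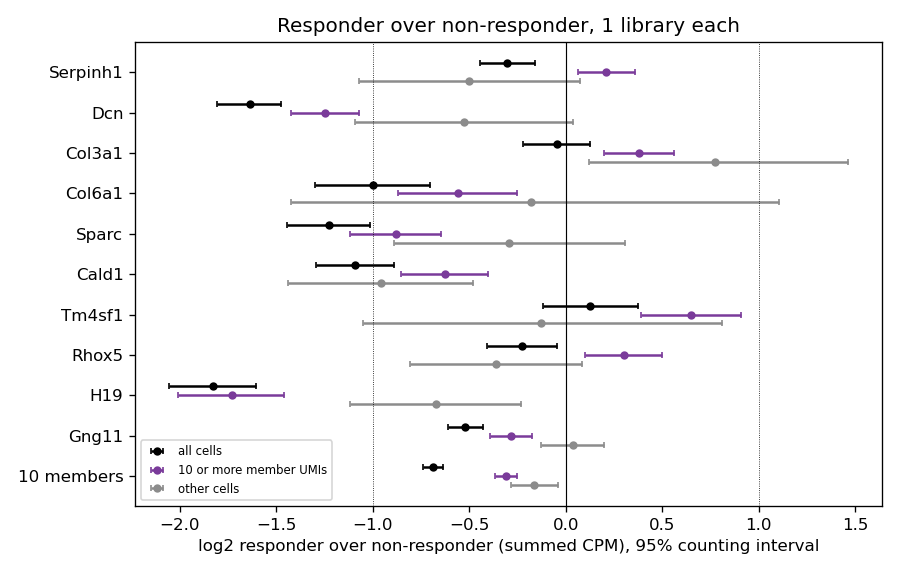
Log2 ratio of summed CPM, responder over non-responder, for each member and for the 10 together, over all cells (black), member-rich barcodes (purple) and other cells (grey), with 95% counting intervals and dotted lines at 2-fold. Dcn and H19 lie beyond 2-fold in all cells and in member-rich barcodes, and no member does in the other cells.

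Within member-rich barcodes the ratio of the summed members was nearer to 0. The summed members were at 5741 CPM in responder and 7117 CPM in non-responder barcodes, a log2 ratio of -0.31 (-0.37 to -0.25). Dcn (-1.25) and H19 (-1.73) were over 2-fold lower in the responder barcodes, and the background there was 4.51% lower and 4.76% higher of 3174 genes. Without the barcode with most Dcn in each library, its ratio was -0.70, and that of H19 without its own such barcodes was -1.29. Serpinh1 (0.21), Col3a1 (0.38), Tm4sf1 (0.65) and Rhox5 (0.30) were higher in the responder barcodes by less than 2-fold. Of 10 measured macrophage markers, 9 were over 2-fold higher in responder member-rich barcodes, with a median of 2.26, while of the 14 in the other cells the median was 0.24. Most of the responder UMIs of these markers lay in R9, R17 and R21. The part of this RNA in the members' ratios was not tested.

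Outside the member-rich barcodes the libraries were close. The members summed to 28.7 CPM in responder and 32.2 CPM in non-responder cells, a log2 ratio of -0.16 (-0.28 to -0.04). None of the 8 members measured there was past 2-fold, against a background of 4.68% lower and 3.24% higher of 11056 genes. Gng11 was at 17.3 and 16.8 CPM, and Cald1 at 1.47 and 2.86 CPM, a log2 ratio of -0.96 (-1.44 to -0.48). Col3a1 was at 1.54 CPM in responder and 0.899 CPM in non-responder cells, a log2 ratio of 0.77 (0.12 to 1.46).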

How the data were processed

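The deposited files were 1 gene-by-barcode matrix per library with its gene and barcode lists. Their values are whole-number UMI counts that the authors made from the reads, with Cell Ranger 1.1.0 and the builds mm10 and GRCm38 named in the submitters' processing notes. Other upstream steps are not given in the sources used here. Groups were taken from the labels, 1 library each, so no group test was run. The members and gene lists were chosen with earlier results of these data known.

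Cells had at least 500 genes and at most 10% mitochondrial UMIs. Levels are summed UMIs per 1000000 (CPM) with exact Poisson intervals, shares have Clopper-Pearson intervals, and log2 ratios have conditional exact binomial intervals, all at 95%. Molecules from 1 droplet are not independent samples, so intervals cover counting error only. "Past 2-fold" needed 50 or more counts in both groups compared together, and a count of 0 was set at a floor of 3. Cells were clustered with scanpy 1.11.5 (Leiden, 2000 variable genes, 30 components, 15 neighbours, resolution 1) and named by listed markers. Thinning drew 3000 UMIs per cell (seed 7). Genes beside the members were named by 3 rules, namely the 20 with the highest fold (members left out), the 12 with the highest correlation, and the listed pathway and marker genes. Some genes that these rules name are not reported here. TMM factors came from edgeR 4.0.16 as an alternative scaling. The scripts were tested on simulated counts. No column of other samples was present.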

Additional observations from a re-analysis of the deposited data

Results flagged for a closer look

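A barcode outside the kept cells of each library held member RNA. In the responder library, 1 barcode left out for 13.1% mitochondrial UMIs held 383 member UMIs among 13897, of which 166 were Col3a1, 69 Gng11, 34 Sparc, 32 Dcn and 24 H19. It also held 22 Col1a1 UMIs, against 0 in the 22 kept member-rich barcodes of that library, and 1 Ptprc UMI. In the non-responder library, 1 barcode left out for 12.3% held 22 member UMIs among 7448, with 6 Serpinh1 and 5 Gng11 UMIs. Both lie above the floor of 3 counts set for a count of 0, and neither entered a value given above unless every deposited barcode is named.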

How the results depend on the processing

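No paired analysis was possible because each group had 1 library. Of 220 alternative values, 148 lay within the counting interval of the value given, 72 lay outside it and 0 changed the sign of a difference past 2-fold. Shares and levels below are for the responder library first.

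With each cell thinned to 3000 UMIs and the threshold applied afterwards, member-rich barcodes held 42.2% and 61.2% of member UMIs, with Ptprc at 23.8 and 0 CPM, and 8.65% and 8.09% of the other cells had a member UMI, or 8.60% and 7.98% of macrophage-like cells. The summed level was then 59.8 and 86.1 CPM (log2 -0.53). At 5 member UMIs, member-rich barcodes held 79.3% and 86.7% of member UMIs, made up 1.52% of non-responder cells, and had Ptprc at 37.3 and 44.2 CPM. At 20, they held 76.2% of responder member UMIs, and with 5 different members 77.1% and 84.0%. Without the 1% of cells with most UMIs, they were 0.208% and 0.354% of cells, with Ptprc at 62.2 and 0 CPM.

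With every deposited barcode the summed level was 138 CPM in the responder library (log2 -0.60). As a mean over cells it was 59.5 and 88.7 CPM (-0.58), without member-rich barcodes 28.7 and 32.2 CPM (-0.16), with TMM factors 136 and 199.5 CPM (-0.56), and for Dcn, Col3a1 and Col6a1 alone 27.4 and 51.8 CPM (-0.92). Without the barcode with most member UMIs of each library, an alternative chosen after seeing the data, it was 116 and 171.01 CPM (-0.56), and the member-rich share of member UMIs was 75.6% and 81.6%. Leaving out the low-mitochondrial member-rich barcodes, or R17 and R21, also chosen after seeing the data, moved none of these values beyond its interval. Members over 2-fold lower in the responder library numbered 4 in the values given and 0 without member-rich barcodes, and 3 to 5 under the other alternatives run for all members. They were not always the same genes. After thinning, Dcn (log2 -0.44) and Sparc (-0.56) were inside 2-fold, while Col6a1 (-1.23) and Tm4sf1 (-1.07) were past it. As a mean over cells, Dcn (-0.69) and Sparc (-0.82) were again inside 2-fold and Col6a1 (-1.16) past it. Cald1 and H19 were past 2-fold in both. Depth limits the shares of cells with a UMI, as the thinned values show, and the spread between tumours is unknown.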
